A study of Homo sapiens with 20 samples.

Results

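The comparison described here set a higher against a lower dose of a p53 inducer after 24 h. B5/589 cells, immortalized human mammary epithelial cells with an inducible p53 transgene, received 5 ng of doxycycline (4 arrays) or 3 ng (4 arrays), with no volume given for either dose. These 8 arrays are all those of the series with 3 or 5 ng at 24 h, out of 20. The other 12 held the same 2 doses at 12 h (5 ng on 4 arrays, 3 ng on 4) and cells given 0 ng for 24 h (4 arrays), which carry the transgene too. All cells belong to 1 line and grew in medium with serum and EGF. Doxycycline induces the transgene.

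p53 is a transcription factor that binds response elements near its target genes. Its targets include CDKN1A, whose product p21 blocks cyclin-dependent kinases, and genes of the death receptor and mitochondrial routes to apoptosis. Through p21, RB family proteins and the DREAM complex, p53 also lowers the transcripts of cell cycle genes, which it does not need to bind itself. Whether arrest and apoptosis genes respond to different amounts of p53 is the question that the series poses.

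At 24 h, cells with 5 ng had less RNA of the mitotic and DNA replication genes and more of a set that included p53 targets and cornified envelope genes than cells with 3 ng. Of 18417 genes, 468 (2.54%) differed between the doses, 329 of them higher (1.79%) and 139 lower (0.755%) at 5 ng (limma, Benjamini-Hochberg adjusted p under 0.05). The falls were the larger changes, with a median log2 difference of -1.19 and a range of -1.91 to -0.71, while the rises had a median of 0.77 and a range of 0.46 to 2.42. A difference of 1 on this scale is a doubling. The median over all genes was -0.005. The 4 arrays with 5 ng all lay above the 4 with 3 ng for each of the 329 rises, as they did for 8.31% of all genes, and all lay below for 138 of the 139 falls, as for 2.9% of all genes. The genes were called on these same arrays, so this separation follows largely from the choice and adds no support to the calls.

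After quantile normalization between arrays, which removes differences in brightness, 1911 genes (10.4%) were called, 1097 higher (5.96%) and 814 lower (4.42%). The share of calls that were higher was 57.4% then, against 70.3% on the deposited values, and 466 of the 468 genes were called on both scales in the same direction. The count dropped to 276 (163 higher) once replicate 4 of 3 ng was left out. With replicate 3 or replicate 4 of 5 ng left out instead, it was 302 (205 higher) or 304 (186 higher). The call was made in all 8 fits that each leave out 1 array for 158 of the 329 rises and 89 of the 139 falls. Array medians averaged 4.8 ± 0.20 at 5 ng and 4.85 ± 0.13 at 3 ng (SD, n = 4 each), a difference of -0.045 (exact two-sided permutation p = 0.8).

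**Figure D1:**
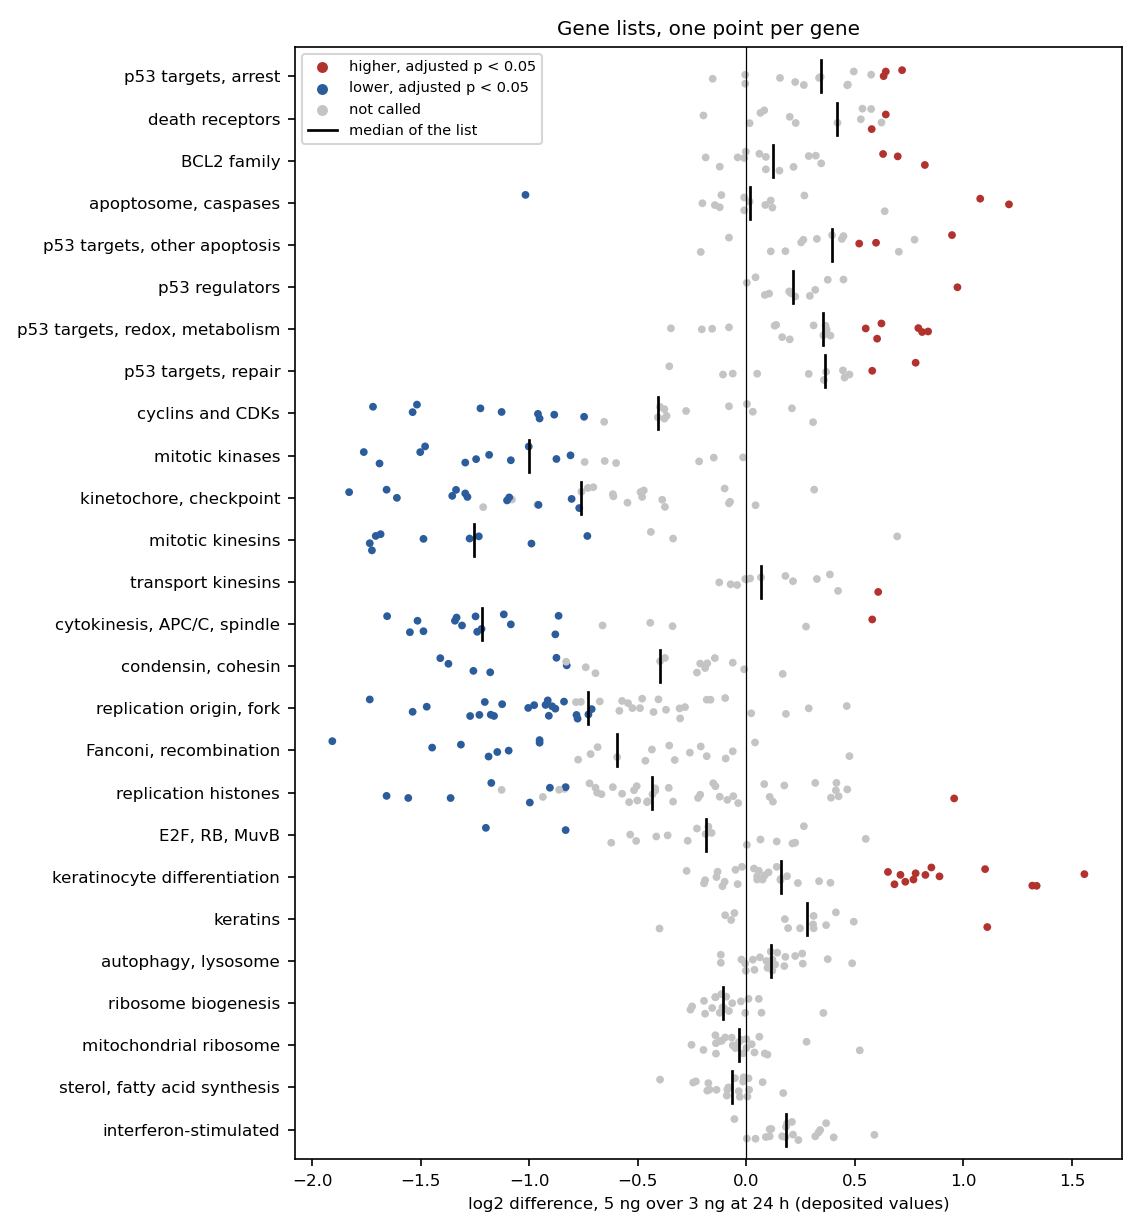
Log2 difference between 5 ng and 3 ng at 24 h for the measured genes of 26 lists, on the deposited values, with genes called higher in red, called lower in blue and the rest in grey. Vertical bars give each list's median, which is -1.25 for mitotic kinesins, -1.22 for cytokinesis, APC/C and spindle genes, -1.0 for mitotic kinases and 0.34 for arrest targets of p53.

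The genes of mitosis made the largest block of falls. Of 17 mitotic kinases 11 fell and 0 rose, with a list median of -1.0. Over all genes 0.755% fell and 1.79% rose, and 4.42% and 5.96% after quantile normalization. The counts of this list and of those that follow are to be read beside these shares. TTK, the checkpoint kinase also called MPS1, had log2 signals of 2.88, 3.83, 3.97 and 3.18 on the 5 ng arrays, against 5.33, 5.58, 5.11 and 4.89 on the 3 ng arrays. Its difference was -1.76 ± 0.28 (SE, n = 4 arrays each), or 3.39-fold lower (limma adjusted p = 0.000945). PLK4, which starts centriole duplication, had signals of 3.56, 3.4, 3.11 and 3.93 on the 5 ng arrays, against 5.3, 5.26, 5.02 and 5.18 on the 3 ng arrays, 3.23-fold lower at 5 ng. The 5 ng arrays lay below all 3 ng arrays for both kinases, which was a condition for naming them among the 15 largest falls. BUB1, a checkpoint kinase, fell by 1.5 and PLK1, which acts at many steps of mitosis, by 1.48 on the log2 scale.

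Among 12 mitotic kinesins, the motors of the spindle and midbody, 9 fell and 0 rose, and the median was -1.25. KIF11, which pushes spindle poles apart, had 3.48, 3.97, 3.72 and 4.17 on the 5 ng arrays, against 5.5, 5.79, 5.47 and 5.48 on the 3 ng arrays, a difference of -1.73 ± 0.25 (limma adjusted p = 0.000375). KIF14, of the midbody, had 3.6, 4.34, 3.96 and 4.25 on the 5 ng arrays, against 5.72, 6.02, 5.91 and 5.44 on the 3 ng arrays. KIF18A and KIF15 differed by -1.71 and -1.69. KIF20A, a kinesin of cytokinesis, stood apart from this list at 0.70, not called as deposited and called higher after quantile normalization (0.64). Of 13 kinesins that carry cargo along microtubules 1 was higher (KIF1B, 0.61) and 0 lower, with a median of 0.07, and the KIF1B call was lost without any 1 of the 8 arrays (0.56 to 0.64).

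Of 31 kinetochore and spindle checkpoint genes 12 fell and 0 rose (22 falls after quantile normalization). NUF2, a subunit of the complex that holds microtubules, had 3.82, 4.45, 4.44 and 4.12 on the 5 ng arrays, against 6.29, 6.3, 5.97 and 5.59 on the 3 ng arrays, which was 3.56-fold lower (limma adjusted p = 0.000511). SGO1, the protector of centromeric cohesion, fell by 1.61, and CENPF, a large kinetochore protein, by 1.66. Of 19 condensin and cohesin genes 6 fell and 0 rose (13 falls after quantile normalization), among them the condensin subunits NCAPH (-1.41) and NCAPG (-1.37). Of 19 genes of cytokinesis, the anaphase-promoting complex and the spindle 14 fell and 1 rose. ASPM, of the spindle pole, had 3.59, 4.09, 3.8 and 3.69 on the 5 ng arrays, against 5.46, 5.77, 5.44 and 5.12 on the 3 ng arrays. The rise was that of PTTG1, securin, which holds separase inactive until anaphase, with 10.14, 10.39, 10.31 and 10.11 on the 5 ng arrays, against 9.72, 9.75, 9.82 and 9.34 on the 3 ng arrays. Its call (limma adjusted p = 0.0497) was lost without any 1 of the 8 arrays, with differences of 0.47 to 0.63.

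Cyclins and their kinases fell in 9 of 21 (16 after quantile normalization), with 0 rises. CCNB1, the mitotic cyclin B1, had 7.39, 7.9, 7.43 and 7.41 on the 5 ng arrays, against 9.17, 9.23, 9.06 and 8.82 on the 3 ng arrays, and its difference was -1.54 ± 0.20 (limma adjusted p = 0.000214). Cyclin A2, CCNA2, had 5.16, 5.55, 5.13 and 5.12 on the 5 ng arrays, against 6.77, 6.91, 6.72 and 6.63 on the 3 ng arrays. On both genes replicate 2 of 5 ng was the highest of its group and still lay below every 3 ng array. CCNE2, a cyclin of S phase entry, differed by -1.72. CCND1, CCND3, CDK6 and WEE1 were not called, with 0.00, 0.21, 0.03 and 0.31. MKI67, the proliferation marker, had 5.05, 5.62, 5.19 and 5.21 on the 5 ng arrays, against 6.65, 6.68, 6.48 and 6.29 on the 3 ng arrays. CDK1, the mitotic kinase that cyclin B1 activates, had 4.75, 4.83, 4.52 and 5.16 on the 5 ng arrays, against 6.2, 5.96, 5.71 and 5.9 on the 3 ng arrays, and its call (limma adjusted p = 0.0107) was lost without replicate 3 of 5 ng (-1.03, limma adjusted p = 0.0526). In bulk RNA such as this, fewer cycling cells and less RNA per cycling cell cannot be told apart.

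The falls shared promoter letters that their choice did not use. RefSeq promoter windows of 250 bases before to 50 after the start (GRCh38.p14) were found for 116 of the 139 falls and 276 of the 329 rises, as 148 and 440 windows. The CHR element, TTTGAA on either strand, is the site through which the DREAM and MuvB complexes reach many G2 and M phase genes. It was present in 41.9% of the windows of falls, 12.0% of those of rises and 12.3% of all 20107 windows of tested genes. The CCAAT box, CCAAT on either strand and a site of the activator NF-Y, was present in 62.8%, 31.8% and 34.6%. Both were present in 30.4%, 2.73% and 4.88%. In the last 50 bases before the start, the CHR element began in 14.2% of the windows of falls, 1.59% of those of rises and 1.75% of all. The p53 decamer was present in 7.43% of the windows of falls, 9.55% of those of rises and 6.28% of all. A match is a run of letters and not a shown site, and windows of 1 gene can overlap.

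The 80 bases before the start are printed for 9 of the 30 largest falls, chosen for a CHR element there, as the letters behind these shares, 5′ to 3′ along the gene. A chromosome was left out of the printing, so 9 need not be the full count of such falls. Capitals mark the CHR element and the CCAAT box, either of which may lie on the other strand as TTCAAA or ATTGG.
DEPDC1 (chr1:68497083-68497162, minus strand): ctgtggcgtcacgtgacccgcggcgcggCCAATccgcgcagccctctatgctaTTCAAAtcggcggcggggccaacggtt
KIF11 (chr10:92593050-92593129, plus strand): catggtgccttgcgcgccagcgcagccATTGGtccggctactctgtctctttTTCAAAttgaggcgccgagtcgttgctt
KIF18A (chr11:28108157-28108236, minus strand): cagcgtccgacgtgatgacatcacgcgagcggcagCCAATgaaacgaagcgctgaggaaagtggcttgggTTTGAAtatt
CKAP2L (chr2:112764610-112764689, minus strand): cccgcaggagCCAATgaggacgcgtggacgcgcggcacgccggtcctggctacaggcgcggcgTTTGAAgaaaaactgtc
KIF15 (chr3:44761714-44761793, plus strand): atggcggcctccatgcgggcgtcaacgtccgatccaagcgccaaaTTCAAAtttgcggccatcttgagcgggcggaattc
H3C2 (chr6:26032100-26032179, minus strand): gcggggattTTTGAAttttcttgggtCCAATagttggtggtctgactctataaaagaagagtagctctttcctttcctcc
HMMR (chr5:163460552-163460631, plus strand): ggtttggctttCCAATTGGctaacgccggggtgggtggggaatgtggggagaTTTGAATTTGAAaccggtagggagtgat
KIF23 (chr15:69414269-69414348, plus strand): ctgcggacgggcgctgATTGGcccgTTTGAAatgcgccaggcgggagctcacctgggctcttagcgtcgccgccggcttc
PLK1 (chr16:23678809-23678888, plus strand): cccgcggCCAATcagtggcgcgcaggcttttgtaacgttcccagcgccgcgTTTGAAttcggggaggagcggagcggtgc
The CHR element began 27 bases before the start in DEPDC1, 28 in KIF11 and 10 in KIF18A, and farther up in KIF23 (55) and H3C2 (71). A CCAAT box lay upstream of it in 7 of the 9 stretches, downstream in H3C2 and nowhere in the stretch of KIF15. HMMR, the hyaluronan-mediated motility receptor of the spindle, held the CHR element at 28 and again at 22 bases before the start. DEPDC1, a mitotic gene, had log2 signals of 4.76, 4.48, 4.87 and 5.13 on the 5 ng arrays, against 6.71, 6.94, 6.39 and 6.63 on the 3 ng arrays.

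**Figure D2:**
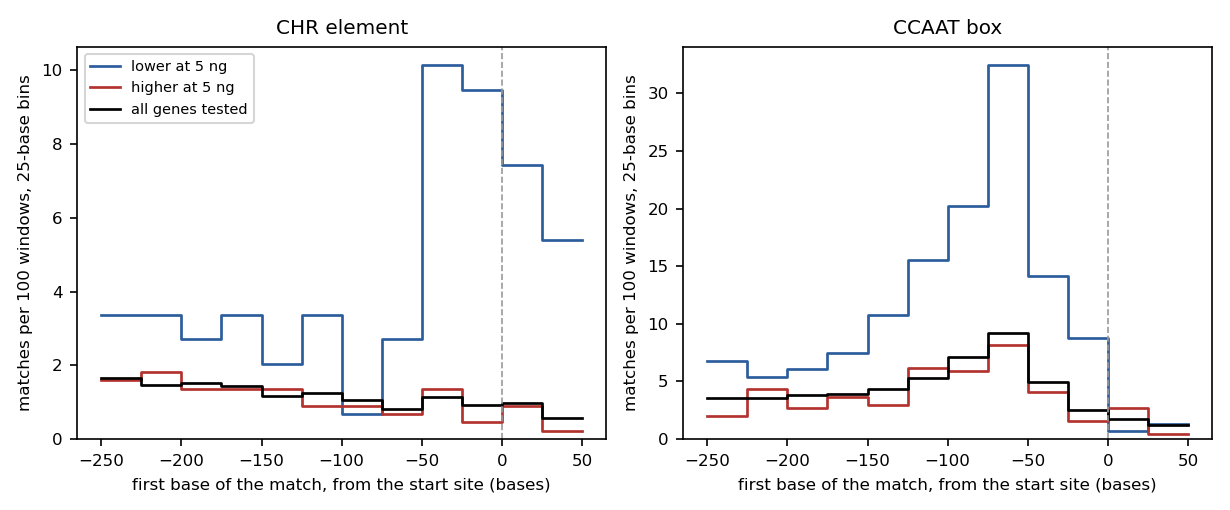
Matches per 100 promoter windows in bins of 25 bases, against the distance of the match's first base from the start site, for genes lower at 5 ng (148 windows), higher at 5 ng (440) and all tested genes (20107). The falls exceed the other lines most near the start for the CHR element (left) and most from about 150 to 25 bases before it for the CCAAT box (right). They also exceed them by less in the other bins before the start, except in the CHR bin at -100.

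Replication genes fell too. Of 43 genes of replication origins and forks 21 fell and 0 rose, with a median of -0.73 (33 falls and 1 rise after quantile normalization). DTL, the ubiquitin ligase adaptor that clears licensing factor CDT1 in S phase, had 5.81, 5.95, 5.22 and 5.85 on the 5 ng arrays, against 7.74, 7.64, 6.95 and 7.44 on the 3 ng arrays, or 3.33-fold lower (limma adjusted p = 0.000693). CLSPN, claspin, fell by 1.54, and CDC6, which loads the MCM helicase, by 1.47. The helicase subunits MCM2 to MCM7 were all called lower, between -0.92 and -0.71. The count of the list was 10, 11 and 11 without replicates 1, 2 and 4 of 3 ng and 13 and 11 without replicates 1 and 3 of 5 ng, and the calls of MCM2 to MCM7 held, in that order, in 5, 1, 2, 7, 2 and 0 of the 8 fits. PCNA, the sliding clamp of the fork and a p53 target, was not called (0.29), nor was geminin, GMNN (0.18).

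Of 23 Fanconi and recombination genes 8 fell and 0 rose (14 falls and 1 rise after quantile normalization, and 5 falls once replicate 3 of 5 ng was left out). XRCC2, a gene of recombination repair, had the largest fall of the 139 genes called lower, with 3.73, 3.56, 3.5 and 4.0 on the 5 ng arrays, against 5.84, 5.81, 5.33 and 5.44 on the 3 ng arrays. Its difference was -1.91 ± 0.24, or 3.75-fold lower (limma adjusted p = 0.000197). EXO1, a nuclease, fell by 1.31 and BLM, a helicase, by 1.19. RAD51C, of the same list, lay on the other side of 0 (0.48), not called as deposited and called higher after quantile normalization. RRM2, the ribonucleotide reductase subunit of S phase, had 6.3, 6.07, 6.19 and 6.55 on the 5 ng arrays, against 7.65, 7.61, 7.39 and 7.32 on the 3 ng arrays, 2.32-fold lower. Its p53-responsive counterpart RRM2B was not called (0.36), and neither was thymidylate synthase, TYMS (-0.09).

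Replication-dependent histones fell in 7 of 47 and rose in 1, with a list median of -0.43. The falls numbered 16 after quantile normalization and 4 once replicate 1 of 5 ng was left out. H3C2, a histone H3 gene, had 5.49, 5.75, 5.25 and 5.86 on the 5 ng arrays, against 7.45, 7.41, 6.95 and 7.17 on the 3 ng arrays, a difference of -1.66 ± 0.23 (limma adjusted p = 0.000312), and H2BC14 fell by 1.56. H2BC11 was the rise, with 6.72, 6.44, 6.82 and 6.85 on the 5 ng arrays, against 5.53, 5.44, 5.94 and 6.09 on the 3 ng arrays (0.96 ± 0.17, limma adjusted p = 0.00232). Its 0 ng arrays had 6.3, 6.36, 6.43 and 6.79. Histone genes are near-identical copies, so how far probes of 1 gene read another is uncertain.

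Regulators of these genes were a further list. Of 19 E2F, RB and MuvB genes 2 fell and 0 rose (6 falls and 1 rise after quantile normalization). FOXM1, the activator of G2 and M genes, had 5.01, 5.63, 5.39 and 5.0 on the 5 ng arrays, against 6.61, 6.63, 6.31 and 6.28 on the 3 ng arrays, 2.3-fold lower (limma adjusted p = 0.000689). MYBL2, the MuvB partner in S phase, differed by -0.83, a call that held in 1 of the 8 fits with 1 array left out, the one without replicate 2 of 5 ng. E2F1 was not called, with 5.85, 4.46, 5.19 and 5.6 on the 5 ng arrays, against 5.63, 5.87, 5.75 and 5.51 on the 3 ng arrays, so that the groups overlapped. RB1 was higher by 0.55 without a call as deposited, and was called higher after quantile normalization (0.45).

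Among the p53 targets of arrest, 3 of 15 rose and 0 fell at 5 ng (limma), with a median of 0.34, and 8 rose after quantile normalization. Over all genes 1.79% rose as deposited and 5.96% after quantile normalization. CDKN1A had log2 signals of 9.96, 10.1, 10.11 and 10.04 on the 5 ng arrays, against 9.43, 9.39, 9.42 and 9.1 on the 3 ng arrays. The difference was 0.72 ± 0.14, or 1.64-fold (limma adjusted p = 0.00554). SFN, 14-3-3 sigma, which holds cyclin B1 and CDK1 out of the nucleus, had 12.12, 12.27, 12.25 and 12.09 on the 5 ng arrays, against 11.67, 11.62, 11.61 and 11.3 on the 3 ng arrays, 1.55-fold higher. PLK3, a stress kinase, rose by 0.64. In all 3 genes replicate 4 was the lowest of the 3 ng arrays, and the calls held without it. GADD45A, a stress sensor, had 10.86, 11.06, 10.96 and 11.05 on the 5 ng arrays, against 10.75, 10.69, 10.72 and 10.43 on the 3 ng arrays and was not called as deposited (0.34 ± 0.16), but was after quantile normalization (0.21). Among 7 inhibitors of cyclin-dependent kinases CDKN1A rose and CDKN3, a phosphatase of CDK1 and CDK2 that is made in mitosis, fell by 1.14, while p27 (CDKN1B, 0.14) and p16 (CDKN2A, -0.13) were not called.

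**Figure D3:**
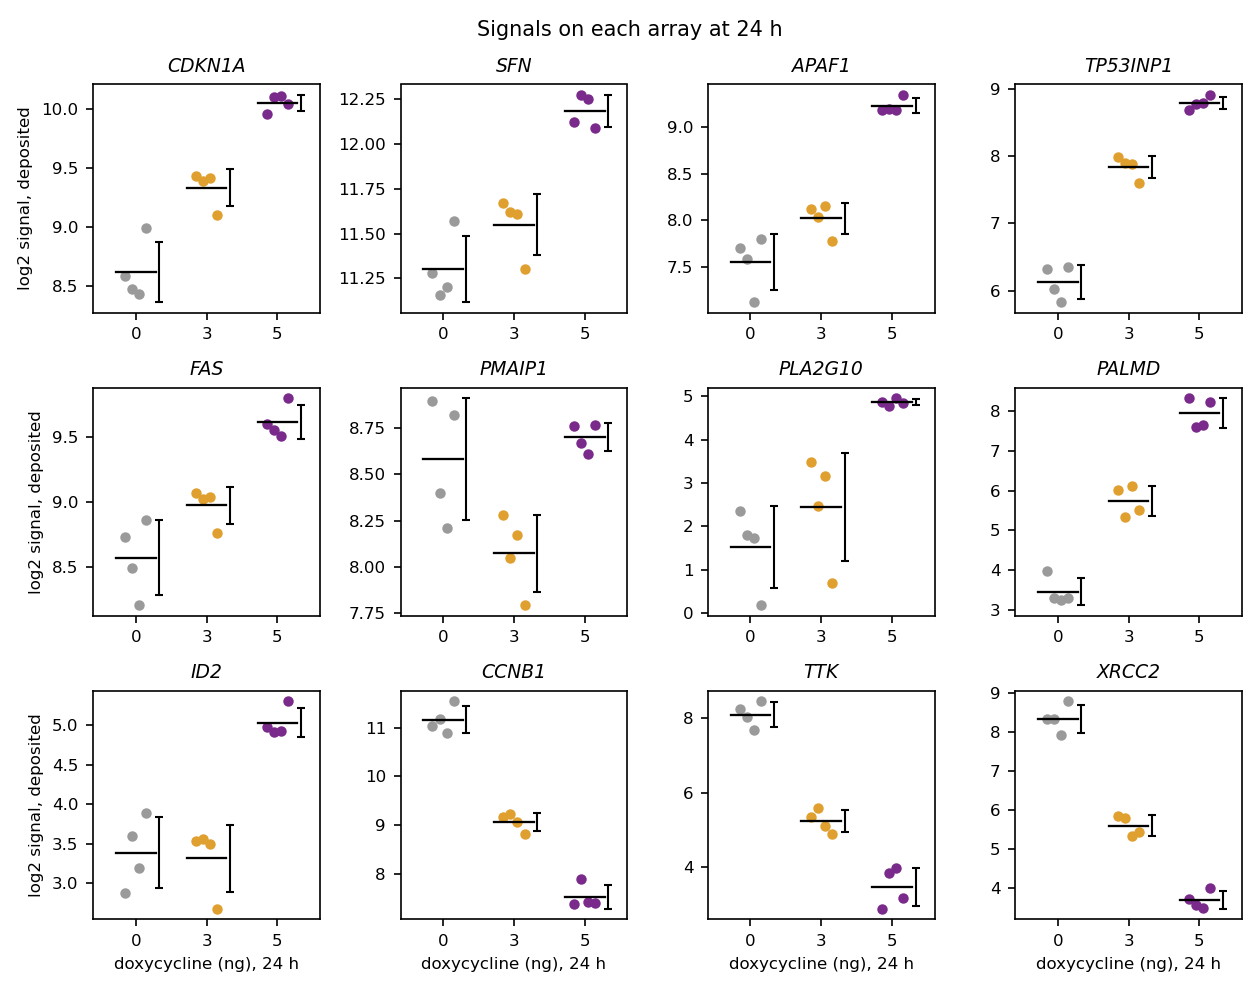
Deposited log2 signals of 12 genes on each array at 24 h, with 0, 3 and 5 ng of doxycycline from left to right (4 arrays each). Lines are means and bars SD. PALMD, TP53INP1 and APAF1 sit higher at 5 ng than at 3 ng on every array, CCNB1, TTK and XRCC2 lower, and the means of PMAIP1 and ID2 are no higher at 3 ng than at 0 ng.

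Of the apoptosis genes, APAF1, the scaffold of the apoptosome, had 9.19, 9.2, 9.19 and 9.35 on the 5 ng arrays, against 8.12, 8.04, 8.15 and 7.78 on the 3 ng arrays. Its difference was 1.21 ± 0.16, or 2.31-fold, with limma adjusted p = 0.000214. CASP6, an effector caspase, had 8.32, 8.29, 8.18 and 8.74 on the 5 ng arrays, against 7.3, 7.32, 7.42 and 7.18 on the 3 ng arrays, 2.11-fold higher. Of 15 apoptosome, caspase and inhibitor genes these 2 rose. The single fall was BIRC5, survivin, an inhibitor of apoptosis that is made in mitosis, with 6.17, 6.79, 6.1 and 6.21 on the 5 ng arrays, against 7.61, 7.57, 7.27 and 6.89 on the 3 ng arrays, and that call needed replicate 3 of 5 ng (-0.94 once it was left out) and replicates 1 and 2 of 3 ng (-0.93 and -0.94). CASP8 (-0.12), CASP9 (-0.12), XIAP (0.11) and cytochrome c, CYCS (0.12), were not called.

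In the BCL2 family 3 of 16 rose (1.79% of all genes) and 0 fell (0.755%), and the 3 rises were all promoters of cell death. BCL2L11, the BH3-only protein BIM, had 5.38, 4.95, 5.37 and 5.38 on the 5 ng arrays, against 4.71, 4.41, 4.59 and 4.08 on the 3 ng arrays (0.82 ± 0.16, limma adjusted p = 0.00526). BAK1, a pore former of the outer mitochondrial membrane, had 9.2, 9.39, 9.19 and 9.15 on the 5 ng arrays, against 8.67, 8.6, 8.64 and 8.23 on the 3 ng arrays, 1.62-fold higher. PMAIP1, the BH3-only protein NOXA, had 8.76, 8.67, 8.61 and 8.77 on the 5 ng arrays, against 8.28, 8.05, 8.17 and 7.79 on the 3 ng arrays. Its groups did not overlap, but the call (limma adjusted p = 0.0469) was lost without any 1 of the 8 arrays (0.54 to 0.70). BAX, the other pore former, had 9.09, 9.3, 9.32 and 9.25 on the 5 ng arrays, against 8.9, 8.96, 9.0 and 8.72 on the 3 ng arrays, and BBC3, the BH3-only protein PUMA, had 6.07, 5.67, 6.2 and 6.0 on the 5 ng arrays, against 5.67, 6.15, 5.99 and 5.77 on the 3 ng arrays. Neither was called, and the BBC3 groups overlapped. The survival genes BCL2 (-0.04), BCL2L1 (0.22) and MCL1 (0.09) were not called.

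Of 13 genes of the death receptor route 2 rose and 0 fell (6 and 1 after quantile normalization). Over all genes 1.79% rose and 0.755% fell (5.96% and 4.42% after quantile normalization). FAS, the receptor of FAS ligand, had 9.6, 9.55, 9.51 and 9.8 on the 5 ng arrays, against 9.07, 9.02, 9.04 and 8.76 on the 3 ng arrays, and PIDD1, an adaptor of the caspase 2 complex, had 8.34, 8.52, 8.61 and 8.52 on the 5 ng arrays, against 7.98, 7.94, 8.15 and 7.61 on the 3 ng arrays. Both sets of arrays stood apart, yet the FAS call was lost without any 1 array (0.57 to 0.68), and that of PIDD1 held in 2 of these 8 fits, those that left out replicate 1 of 5 ng and replicate 3 of 3 ng. TNFRSF10B, a TRAIL receptor, had 10.31, 10.42, 10.35 and 10.4 on the 5 ng arrays, against 10.13, 9.99, 10.01 and 9.67 on the 3 ng arrays and was not called as deposited, but was after quantile normalization (0.30).

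Of 15 further p53 targets linked to apoptosis 3 rose and 0 fell (8 and 1 after quantile normalization). TP53INP1, a stress protein that modifies p53 activity, had 8.68, 8.78, 8.79 and 8.91 on the 5 ng arrays, against 7.98, 7.9, 7.89 and 7.6 on the 3 ng arrays, 1.93-fold higher (limma adjusted p = 0.00117). TP53I3, a quinone oxidoreductase, had 11.42, 11.58, 11.52 and 11.44 on the 5 ng arrays, against 10.98, 10.94, 11.02 and 10.63 on the 3 ng arrays, and PERP, a desmosomal membrane protein, differed by 0.52. The TP53I3 call did not survive leaving out replicate 2 (0.57) or 3 (0.59) of 5 ng, nor replicate 4 of 3 ng (0.51), and that of PERP held only without replicate 1 of 3 ng. IGFBP3, which binds insulin-like growth factors, was 0.78 without a call as deposited and was called after quantile normalization (0.66).

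Among 12 genes that regulate p53, TP73, its relative, was the single rise, with 6.82, 6.93, 6.82 and 6.92 on the 5 ng arrays, against 5.74, 5.93, 6.17 and 5.76 on the 3 ng arrays (0.97 ± 0.17, limma adjusted p = 0.00176). MDM2, the ubiquitin ligase of p53, had 12.46, 12.57, 12.61 and 12.6 on the 5 ng arrays, against 12.35, 12.29, 12.3 and 12.13 on the 3 ng arrays and was not called on either scale, and neither were MDM4 (0.11) and CCNG1 (0.23). PPM1D, the phosphatase that turns p53 off, was called after quantile normalization and not as deposited (0.45).

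Of 19 targets in redox control and metabolism 6 rose and 0 fell (10 after quantile normalization), but 1 to 3 rose when 1 array was left out. TP53I11 kept its call in all 8 of these fits, with 6.73, 6.45, 6.71 and 6.83 on the 5 ng arrays, against 5.81, 5.93, 5.95 and 5.68 on the 3 ng arrays (1.79-fold higher). SESN1, a sestrin that restrains mTORC1, had 8.7, 8.78, 8.79 and 9.09 on the 5 ng arrays, against 8.09, 8.23, 8.13 and 7.74 on the 3 ng arrays, and its call needed the 4th array of each dose (0.71 once that of 5 ng was left out and 0.69 once that of 3 ng was). Of 12 repair targets 2 rose and 0 fell (6 after quantile normalization), POLH and CDIP1, a gene of p53-dependent apoptosis. The CDIP1 call (0.58) held in 2 of the 8 fits with 1 array left out, those that dropped replicate 1 of 5 ng and replicate 3 of 3 ng. POLH, the polymerase that copies past ultraviolet lesions, had 9.87, 10.01, 9.99 and 10.11 on the 5 ng arrays, against 9.22, 9.24, 9.39 and 9.01 on the 3 ng arrays (0.78 ± 0.16, limma adjusted p = 0.00744). XPC, a damage sensor of nucleotide excision repair, had 7.34, 7.47, 7.6 and 7.56 on the 5 ng arrays, against 7.15, 7.03, 7.15 and 6.86 on the 3 ng arrays and was not called as deposited, but was after quantile normalization (0.39) and after centring each array on its median. DDB2, which also recognises such damage, was 0.45 as deposited and called after quantile normalization.

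The largest rises included genes outside the p53 lists. PLA2G10, a secreted phospholipase A2, had 4.87, 4.78, 4.96 and 4.85 on the 5 ng arrays, against 3.48, 2.46, 3.15 and 0.69 on the 3 ng arrays. The 5 ng arrays lay within 0.2 of each other and the 3 ng arrays spread over more than 2 log2 units, with a difference of 2.42 ± 0.45 (limma adjusted p = 0.00336). Its 3 ng signals were dim, around the lower quartile of all clusters on those arrays (2.22 to 2.56). The difference ran from 1.835 to 2.765 with 1 array left out. PALMD, palmdelphin, a cytosolic protein related to paralemmin, had 8.32, 7.61, 7.65 and 8.23 on the 5 ng arrays, against 6.01, 5.33, 6.11 and 5.51 on the 3 ng arrays, 4.63-fold higher (limma adjusted p = 1.42e-05). LINC00324, a long noncoding RNA, had 6.04, 6.18, 6.25 and 6.21 on the 5 ng arrays, against 4.21, 4.63, 4.46 and 3.56 on the 3 ng arrays. GDF9, a TGF-beta family factor best known from oocytes, had 7.25, 6.79, 7.05 and 7.34 on the 5 ng arrays, against 5.36, 5.31, 5.57 and 4.76 on the 3 ng arrays. None of these groups overlapped, which was a condition for naming the largest rises. FAM13C rose by 1.61, SHC4, an adaptor of receptor tyrosine kinases, by 1.6, HSD17B3, which makes testosterone, by 1.58, CEMIP, which breaks down hyaluronan, by 1.55, and WFDC5, a presumed protease inhibitor, by 1.64.

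CRYAB, alpha-B crystallin, was the single rise among 16 heat shock genes, with 10.14, 10.22, 10.27 and 10.65 on the 5 ng arrays, against 8.73, 8.55, 8.87 and 8.54 on the 3 ng arrays. It was 3.13-fold higher (limma adjusted p = 0.000693), and its 0 ng arrays had 3.26, 3.52, 3.65 and 4.64. HSPB8 (0.48), HSPB1 (0.34) and HSPA8 (0.11) were not called. Among 18 genes of the stress response to unfolded protein and amino acid shortage CHAC1, which breaks down glutathione, was the single rise at 0.91, a call that leaving out replicate 1 of 5 ng (0.81) ended, as did replicate 4 of 3 ng (0.82), while ATF4 (0.04), DDIT3 (0.29) and ASNS (-0.15) were not called.

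Genes of keratinocyte differentiation include those whose products form the cornified envelope of the outer skin layer. Their list gave 13 rises among 37 (1.79% of all genes) and 0 falls (0.755%). Of these, 8 encode late cornified envelope proteins, which lie in 1 gene cluster. LCE1F had 10.0, 10.01, 10.03 and 9.98 on the 5 ng arrays, against 8.58, 8.32, 8.69 and 8.2 on the 3 ng arrays (1.56 ± 0.14, limma adjusted p = 5.51e-06) and LCE1C had 11.67, 11.67, 11.74 and 11.6 on the 5 ng arrays, against 10.52, 10.28, 10.58 and 9.95 on the 3 ng arrays. LCE1B was 2.49-fold higher. FLG, filaggrin, which bundles keratin in the outer epidermis, had 5.81, 5.41, 5.8 and 5.94 on the 5 ng arrays, against 4.56, 4.65, 4.82 and 4.53 on the 3 ng arrays. The other called members included CLCA2 (0.85) and the differentiation regulators ZNF750 (0.83), GRHL3 (0.78) and OVOL1 (0.68). The calls of FLG, CLCA2, LCE1B, LCE1C and LCE1F were made in all 8 fits with 1 array left out, those of ZNF750, GRHL3 and OVOL1 in 3, 6 and 6, and the list counted 8 once replicate 3 of 5 ng was left out and 6 once replicate 4 of 3 ng was. The other late cornified envelope calls held in fewer fits. LCE1A kept its call in 5 of the 8 fits, LCE1D in 7, LCE1E in 1, LCE3D in 6 and LCE3E in 2. Keratins 1 and 10, involucrin (IVL), loricrin and TGM1 were not called, with 0.05, -0.02, 0.19, -0.05 and 0.09. The LCE1 genes are near-identical copies, so how far probes of 1 read another is uncertain.

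Of 23 matrix protease genes and inhibitors PLAT, a plasminogen activator, rose by 0.68 and TIMP1, a metalloprotease inhibitor, by 0.60, calls that held in 0 and, without replicate 1 of 3 ng, in 1 of the 8 fits with 1 array left out (0.63 to 0.71 and 0.51 to 0.71). The TIMP1 call was also lost after quantile normalization (0.44, limma adjusted p = 0.0842) and after centring each array on its median (0.65, limma adjusted p = 0.0706). Adhesion and matrix genes rose in 3 of 25, with 0 falls, where 1.79% of all genes rose and 0.755% fell. NECTIN4, an adhesion molecule of epithelia, had 7.26, 7.04, 7.01 and 7.19 on the 5 ng arrays, against 6.43, 6.25, 6.32 and 6.06 on the 3 ng arrays, and PKP1, a desmosomal plakophilin, had 9.23, 9.35, 9.39 and 9.28 on the 5 ng arrays, against 8.85, 8.56, 8.82 and 8.43 on the 3 ng arrays. COL7A1, the anchoring collagen of skin, rose by 0.68, a call that needed replicate 3 of 5 ng (0.61 once left out) and replicate 4 of 3 ng (0.56). KRT34, a hair keratin, was the single rise among 14 keratins (1.11), a call that needed replicate 4 of 5 ng (0.96 once left out) and replicate 1 of 3 ng (1.05).

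Several secreted and signalling genes rose within lists of which most members were not called. ID2, which blocks bHLH transcription factors, had 4.97, 4.91, 4.93 and 5.3 on the 5 ng arrays, against 3.53, 3.56, 3.5 and 2.68 on the 3 ng arrays, 3.27-fold higher (limma adjusted p = 0.000313), while ID1 (-0.41), ID3 (0.33) and ID4 (0.29) were not called as deposited. CCL3, a chemokine, had 9.13, 9.21, 9.33 and 9.29 on the 5 ng arrays, against 7.94, 7.26, 7.88 and 7.42 on the 3 ng arrays (1.62 ± 0.18, limma adjusted p = 3.36e-05), while IL6 (0.04), CXCL1 (-0.15) and CCL2 (-0.02) were not called. After quantile normalization ID1 was called lower and ID3 higher. PTGS2, cyclooxygenase 2, which makes prostaglandin precursors from the arachidonic acid that phospholipases release, had 8.79, 8.75, 8.63 and 8.78 on the 5 ng arrays, against 7.77, 7.63, 7.69 and 7.26 on the 3 ng arrays, 2.22-fold higher. Of 16 phospholipase and eicosanoid genes 3 rose and 0 fell. CRABP2, a retinoic acid carrier, rose by 0.92 and RDH10, a retinol dehydrogenase, by 0.81.

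Of 21 immediate early genes 3 rose and 0 fell, where 1.79% of all genes rose and 0.755% fell. NR4A1, a nuclear receptor, had 7.19, 7.11, 7.2 and 7.17 on the 5 ng arrays, against 6.17, 6.3, 6.32 and 6.13 on the 3 ng arrays (0.94 ± 0.15, limma adjusted p = 0.00086) and EGR1, a zinc finger factor, had 8.93, 9.07, 8.96 and 8.84 on the 5 ng arrays, against 8.2, 8.14, 8.18 and 7.95 on the 3 ng arrays. FOS (0.03), JUN (0.13) and MYC (-0.16) were not called as deposited, and MYC was called lower after quantile normalization. JUNB was the third rise at 0.49, a call lost without any 1 of the 8 arrays (0.41 to 0.53). Of 16 feedback genes of the MAPK route SPRY1, a sprouty inhibitor, rose by 0.90 and SPRY2 by 0.62, of which the SPRY2 call held in 2 of the 8 fits, those that left out replicate 1 or 2 of 3 ng (0.53 to 0.70 over all 8), and DUSP6 was not called as deposited (-0.39) and was called lower after quantile normalization.

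Other lists had 0 calls as deposited: autophagy and lysosome (23 genes, median 0.11), ribosome biogenesis (21, -0.11), mitochondrial ribosome (23, -0.04), sterol and fatty acid synthesis (20, -0.07), interferon-stimulated genes (20, 0.19), Notch and Wnt (19, -0.08), EGF receptor and ligands (12, -0.12), contractile genes (12, 0.01) and the insulin-like growth factor axis (11, 0.11). Of all genes 2.54% were called, so 0 calls in lists of this size are near that share. After quantile normalization the largest counts among them were 7 falls with 1 rise in ribosome biogenesis and 3 falls with 1 rise in the mitochondrial ribosome. On that scale 10.4% of all genes were called. Lists with few calls above also gained some, to 3 rises each among p53 regulators, cargo kinesins and unfolded protein and amino acid stress genes, 3 rises and 1 fall among keratins, 5 rises and 2 falls among ID, BMP and TGF-beta genes, 3 and 3 among matrix proteases and 3 and 2 each among apoptosome and caspase genes and MAPK feedback genes. DRAM1, an autophagy gene and p53 target, was 0.49 as deposited and called higher after quantile normalization.

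The 0 ng arrays show where each dose stood relative to cells without inducer, with the limit that 3 ng over 0 ng uses the same 3 ng arrays as 5 ng over 3 ng. At 3 ng, 276 genes (1.5%) were higher and 4228 (23.0%) lower than at 0 ng as deposited, with a median over all genes of -0.24. After quantile normalization 2834 (15.4%) were higher and 2308 (12.5%) lower. Of the 139 falls between the doses, 136 were already lower at 3 ng than at 0 ng, and 135 had all 12 arrays in falling order of dose, as 2.37% of all genes did. NUF2 had 8.89, 8.88, 8.48 and 9.19 at 0 ng, 6.29, 6.3, 5.97 and 5.59 at 3 ng and 3.82, 4.45, 4.44 and 4.12 at 5 ng. Of the 329 rises, 153 were called higher at 3 ng, 17 lower and 159 neither, and after quantile normalization 281, 6 and 42. All 12 arrays were in rising order of dose for 135 rises and for 1.15% of all genes. The 329 and 139 genes were chosen on the 5 and 3 ng arrays, so that this order rests in part on the choice. PALMD had 3.98, 3.31, 3.24 and 3.31 at 0 ng, 6.01, 5.33, 6.11 and 5.51 at 3 ng and 8.32, 7.61, 7.65 and 8.23 at 5 ng.

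Some rises between the doses had no difference called between 3 ng and 0 ng as deposited. ID2 had 2.88, 3.6, 3.19 and 3.89 at 0 ng, 3.53, 3.56, 3.5 and 2.68 at 3 ng and 4.97, 4.91, 4.93 and 5.3 at 5 ng, and PTGS2 had 7.89, 7.29, 6.92 and 7.91 at 0 ng, 7.77, 7.63, 7.69 and 7.26 at 3 ng and 8.79, 8.75, 8.63 and 8.78 at 5 ng. Their log2 differences of 3 ng over 0 ng were -0.07 and 0.09, and those of 5 ng over 0 ng 1.64 and 1.24. EGR1 (-0.03), CHAC1 (0.04) and SPRY1 (-0.14) were also near 0 at 3 ng. All of these are deposited values, for which the median of 3 ng over 0 ng over all genes was -0.24. Of the 329 rises, 159 had no call at 3 ng as deposited and 42 after quantile normalization, so a value near 0 here depends on the scale.

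The 17 genes lower at 3 ng than at 0 ng and higher at 5 ng than at 3 ng included the cell death genes BCL2L11 and PMAIP1. BCL2L11 had 5.39, 5.1, 5.07 and 5.33 at 0 ng, 4.71, 4.41, 4.59 and 4.08 at 3 ng and 5.38, 4.95, 5.37 and 5.38 at 5 ng, so that 3 of the 4 signals at 5 ng lay within the range of those without inducer. PMAIP1 had 8.9, 8.4, 8.21 and 8.82 at 0 ng, 8.28, 8.05, 8.17 and 7.79 at 3 ng and 8.76, 8.67, 8.61 and 8.77 at 5 ng. FAM83D, a spindle protein, had 9.48, 9.52, 9.42 and 9.85 at 0 ng, 8.18, 8.1, 8.17 and 7.84 at 3 ng and 8.75, 9.02, 9.02 and 9.07 at 5 ng. PTTG1 had 10.43, 10.47, 10.32 and 10.76 at 0 ng, 9.72, 9.75, 9.82 and 9.34 at 3 ng and 10.14, 10.39, 10.31 and 10.11 at 5 ng. The mean of both was lower at 5 ng than at 0 ng. The fall at 3 ng held after quantile normalization for 6 of the 17, namely BCL2L11, FAM83D, PTTG1, FAT2, EEIG2 and ZNF701, and not for PMAIP1 (-0.03). ZNF701 was very dim, with -0.69 to 1.07 on the arrays of 24 h, whose lower quartiles were 1.93 to 2.83. The 5 ng over 3 ng call held in all 8 fits with 1 array left out for BCL2L11, FAM83D, H2BC11 and SLCO4A1. The other 13 lost it in 1 or more, and PMAIP1, PTTG1, C11orf24, DYNC2I2, EPHB4 and ITPRIPL2 lost it in all 8.

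The same doses were compared at 12 h, on 8 arrays that the 24 h comparison does not use. There 4 genes (0.0217%) were called as deposited, PALMD, LCE1F, FRMD8 and ARRB1, all higher at 5 ng, with 1082 genes at an unadjusted p under 0.05. After quantile normalization 506 (2.75%) were called, 428 higher (2.32%) and 78 lower (0.424%). Over all genes the deposited values had a median difference of -0.12, and the quantile-normalized ones 0.0004. Of the 329 genes higher at 24 h, 327 were above 0 at 12 h, as 24.7% of all genes were, and 328 after quantile normalization (50.2% of all genes). Of the 139 lower at 24 h, 138 were below 0 at 12 h (75.2% of all genes) and 137 after quantile normalization (49.8%).

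These genes were chosen by their difference at 24 h, which by itself favours larger values there, so that the sizes at both times are given as a description. The median of the rises was 0.37 at 12 h and 0.77 at 24 h, and that of the falls -0.42 and -1.19. CRYAB and PALMD already differed by 1.4 and 1.35 at 12 h, CDKN1A by 0.28 and APAF1 by 0.49. CCNB1 differed by -0.19, TTK by -0.39 and XRCC2 by -0.66. The genes whose sign differed were H2BC11 (-0.04 at 12 h), ZNF701 (-0.31) and OR4C12 (0.10). Over all 18417 genes, which are not independent replicates, the 2 dose differences had a correlation of 0.524 (0.498 after quantile normalization).

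**Figure D4:**
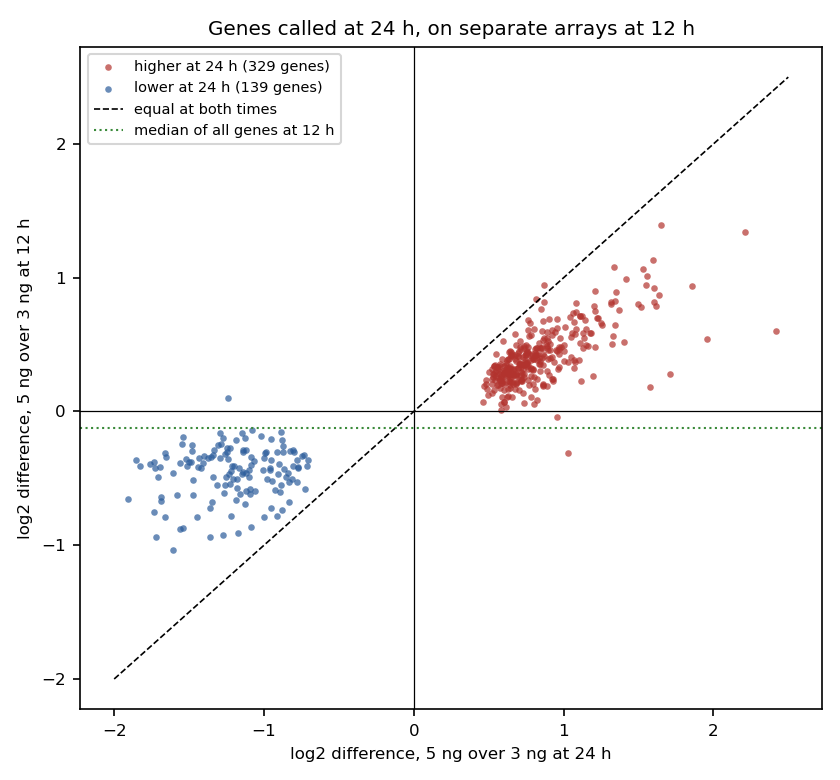
Log2 difference between 5 ng and 3 ng at 12 h (vertical) against that at 24 h (horizontal) for the genes called at 24 h, 329 higher (red) and 139 lower (blue), on the deposited values. Nearly all points lie between the horizontal axis and the dashed line of equal differences, the genes having been chosen by their 24 h difference, and the dotted line is the median of all genes at 12 h.

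The change of the dose difference from 12 h to 24 h was tested as an interaction in the same fit. It called 0 genes (0.0%) with limma on the deposited values, where 391 had an unadjusted p under 0.05, and 13 (0.0706%) after quantile normalization. Of these, 12 (0.0652%) were genes of cell division and replication whose difference was more negative at 24 h, and APAF1 was the 1 (0.00543%) whose difference was more positive. DEPDC1 had the largest value, with differences after quantile normalization of -1.87 at 24 h and -0.34 at 12 h (interaction -1.53, limma adjusted p = 0.00304). For CCNB1 they were -1.59 and -0.21 (interaction -1.38, limma adjusted p = 0.00304), and for APAF1 1.11 and 0.50 (interaction 0.60, limma adjusted p = 0.0388).

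The cells carried the marks of their label. Of 13 measured epithelial markers 12 lay above the median gene, and their mean log2 signal was 10.42 to 10.52 on the 5 ng arrays and 10.02 to 10.31 on the 3 ng arrays. KRT19, a keratin of simple epithelia, was the lowest of these markers, with means of 5.56 at 5 ng and 5.37 at 3 ng. The highest were KRT8 at 5 ng (12.95) and KRT18 at 3 ng (12.67). None of the 13 was called as deposited, where 2.54% of all genes were, and after quantile normalization 4 were called higher (5.96% of all genes). KRT8 and KRT18, keratins of simple epithelia, and KRT5 and KRT14, keratins of basal cells, differed by 0.37, 0.25, 0.50 and 0.41, and KRT8 and KRT5 were among these 4. Fibroblast markers (9 genes) averaged 3.24 to 3.79 at 5 ng and 3.5 to 3.89 at 3 ng, endothelial markers (8) 2.76 to 3.37 and 3.13 to 3.41, and immune markers (10) 3.29 to 3.77 and 3.46 to 3.77, with 0 called as deposited. PTPRC, the leukocyte antigen CD45, averaged -0.70 and -0.48, the lowest of its list, and CD68, of macrophages, 8.76 and 8.63, the highest. LUM, lumican, was the lowest fibroblast marker (-1.37 and -0.97) and FAP the highest (7.04 and 6.87). The part that the shift of the epithelial markers has in the rises was not tested.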

How the data were processed

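Total RNA was measured on 20 Affymetrix arrays, of which the 8 at 24 h with 5 or 3 ng answered the comparison. The authors deposited log2 signals per transcript cluster; the submitters' processing notes name GCOS, GCRMA, Affymetrix Power Tools and limma, without order, and versions are not given in the sources used here. Of 33297 clusters 19460 had 1 gene symbol, 1754 several and 12083 none named here; the brightest cluster stood for 769 genes with more than 1, leaving 18417 genes. limma 3.58.1 (R 4.3.3) fitted the means of all 5 groups on the deposited values, with 15 residual degrees of freedom and Benjamini-Hochberg adjustment over all genes. The fit was tested on simulated data. No 2 arrays were identical. No label says whether replicates were separate cultures, and the p-values then measure only the spread between these samples, possibly a technical one. With 4 arrays per group, array number sets the precision.

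The named genes were a fixed panel, the 15 largest rises and falls whose arrays do not overlap, up to 4 called members of each of 46 lists and the 5 largest interactions of each sign; other names were chosen after their values were seen. The members and lists were chosen with earlier results of these data known. Promoter windows are from RefSeq (GRCh38.p14). Replicate numbers were checked for pairing, and normalization, filters, array weights, the replicate block and left-out arrays were tried as alternatives.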

Additional observations from a re-analysis of the deposited data

Results flagged for a closer look

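Among 224 groups of 4 arrays tested, 1 for each gene named and dose, 20 held an array whose gap to the nearest other exceeded Dixon's critical share of the group's range, and chance gives about 1 in 20 groups. Replicate 4 of 3 ng was the low array for CDKN1A at 9.1 (others 9.39 to 9.43), SFN at 11.3 (11.61 to 11.67), FAS at 8.76 (9.02 to 9.07), ID2 at 2.68 (3.5 to 3.56), CKAP2L at 5.44 (5.87 to 5.91), PLK3 at 8.02 (8.43 to 8.47), BAK1 at 8.23 (8.6 to 8.67) and AKR1B10 at 5.94 (6.18 to 6.21). Replicate 2 of 5 ng was the high array for the cell division genes CCNB1 at 7.9 (7.39 to 7.43), BIRC5 at 6.79 (6.1 to 6.21), MYBL2 at 6.44 (6.04 to 6.1), CCNA2 at 5.55 (5.12 to 5.16), NCAPG at 6.63 (6.12 to 6.19) and POLE2 at 3.13 (2.65 to 2.73), and the low one for BCL2L11 at 4.95 (5.37 to 5.38). Replicate 4 of 5 ng was high for APAF1 at 9.35 (9.19 to 9.2) and ID2 at 5.3 (4.91 to 4.97), and low for CSF1 at 7.96 (8.08 to 8.1). Replicate 3 of 3 ng was high for WFDC5 at 6.5 (6.04 to 6.11), and replicate 2 of 3 ng for KIF11 at 5.79 (5.47 to 5.5).

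After quantile normalization the dose difference was not the same at 24 h and 12 h for 13 genes, by the interaction in limma. The 24 h difference minus that at 12 h was -1.53 for DEPDC1, -1.38 for CCNB1, -1.27 for SHCBP1, -1.21 for CCNA2, -1.2 for AURKA, -1.13 for HMMR, -1.1 for TPX2, -1.09 for TOP2A, -1.07 for PRC1, -1.03 for ANLN, -0.86 for RRM2, -0.81 for CKS2 and 0.60 for APAF1, with adjusted p of 0.00304 (DEPDC1 and CCNB1) to 0.0445 (RRM2 and CKS2). On the deposited values none of them was called.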

How the results depend on the processing

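Quantile normalization gave 1911 calls at 24 h (1097 higher, 814 lower), against 468 (329 and 139) as deposited, centring each array on its median 946 (724 and 222), and array weights 1629 (1105 and 524). Leaving out 1 array gave 276 to 374 calls at 24 h, 163 to 255 higher and 97 to 125 lower. At 12 h, where 4 genes were called, the counts were 506 after quantile normalization, 206 after centring, 0 with the groups compared alone, 23 without the dimmest 30% of genes, 36 with a trend in the variance, 9460 with array weights and 0 to 11 with 1 array left out. The interaction counted 0 as deposited and 13, 1, 2 and 2643 after quantile normalization, centring, the trend and array weights. The estimate of the array weights stopped before it converged, with weights of 0.105 to 20.2, so that those counts are not usable. With fewer changes, the count at 24 h was 678 with the 8 arrays alone, 589 without the dimmest genes, 651 with a trend, 467 with robust variances, 462 with the mean of a gene's clusters and 409 over all clusters. Of 104 named genes called, 78 kept call and direction in all 18 alternatives and 26 lost the call in 1 or more; no value changed direction past the threshold.

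Same-numbered arrays of 5 and 3 ng had correlations of their deviations of -0.179, -0.069, 0.061 and 0.096 as deposited. Arrays of different number had -0.164 to 0.297. After quantile normalization the same-numbered arrays had 0.019, 0.028, 0.049 and 0.027, and those of different number -0.057 to 0.037. Whether replicate numbers pair the samples is not settled by these small values. With the replicate block 495 genes were called at 24 h (325 higher, 170 lower), 2 at 12 h and 0 for the interaction. Quantile normalization with the replicate block, chosen after seeing the data, gave 2489 (1375 higher, 1114 lower), 834 and 77.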

Other observations

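Some further falls are given as single values, chosen after their values were seen and with no list behind them. The histone chaperone ASF1B differed by -1.35, the nuclear lamina protein LMNB1 by -1.48, HJURP, which places the centromeric histone, by -1.22, UHRF1, which guides DNA methylation at the fork, by -1.12, and CHAF1A, of the chromatin assembly factor, by -0.85. The recombination genes RAD51AP1 (-1.58), PARPBP (-1.42) and MND1 (-1.36) fell as well. All 8 kept their call without any 1 array.

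Single rises were chosen in the same way. EDN2, endothelin 2, rose by 1.53, GNA14, a G-protein alpha subunit, by 1.6, ARRB1, beta-arrestin 1, by 1.21, BDKRB1, a bradykinin receptor, by 0.97, ADM, adrenomedullin, by 0.86, and PTAFR, the receptor of platelet-activating factor, by 0.65, all of them called without any 1 array. Other rises were those of PADI3 (1.22), a peptidylarginine deiminase, EPPK1 (1.35), epiplakin, NIPAL4 (0.79), a gene of inherited ichthyosis, and CERS3 (1.15), a ceramide synthase whose call was lost without replicate 4 of 5 ng (0.97).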
